A study of Mus musculus with 6 samples.

Results

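The genes of the Polycomb repressive complexes PRC1 and PRC2 and of the MLL/COMPASS complexes were examined in mouse embryonic fibroblasts (MEFs). They were taken from a list of 40 genes, and each gene was represented by its RefSeq transcript with the highest mean count. All 40 were found among the 25039 genes of the table. RNA-Seq was performed on WT MEFs and on MEFs null for Anp32e (Anp32e-/-), whose product is the chaperone that removes the histone variant H2A.Z from chromatin, with 3 libraries of each. Both groups were primary cells derived from embryos in another laboratory, grown in DMEM with 10% serum and used at a passage below 8. The labels do not say whether the 3 libraries of a group came from separate cultures, although the study describes its cell culture replicates as biological, and the number, litter and sex of the embryos were not given in the sources used here.

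The deposited table holds 1 mean per transcript over all 6 libraries, WT and null together, and the columns of the authors' own comparison of the genotypes, which were not used. The levels below therefore describe the MEFs of both genotypes pooled, in normalized counts, which are read counts divided by a size factor for each library. No value per library, no replicate SD and no test between genotypes can be given. Even Anp32e, the deleted gene, has only its pooled mean of 2190 normalized counts, so the genotype labels could not be checked from this table. Intervals are 95% intervals of counting error only, and the spread between cultures is not part of them. Sequenced reads without molecular identifiers are not independent molecules, so the counting error itself may be larger than given. In bulk RNA, fewer cells of a type and less RNA per cell cannot be told apart.

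Polycomb complexes silence developmental genes such as the Hox clusters. PRC2 methylates lysine 27 of histone H3, PRC1 attaches ubiquitin to histone H2A and compacts chromatin, and MLL/COMPASS complexes oppose them by methylating lysine 4 of histone H3. Promoters that carry both marks are termed bivalent, and H2A.Z is found at many of them.

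Among 10 fibroblast markers, Vim was at 330695, Col1a1 at 26142, Dcn at 144 and Lum at 1.33 normalized counts. Of these 10, 9 had a mean of at least 10 normalized counts. Of 6 pluripotency markers, 2 reached that level, Sox2 at 114 and Nanog at 11.5, and Zfp42 and Dppa5a were at 0. All 4 mesothelial markers did, led by Krt19 at 7400, as did 4 of 5 epithelial, 2 of 4 endothelial, 2 of 4 macrophage, 1 of 3 muscle and 1 of 3 neural crest and glial markers, among them Kdr at 2958, Krt18 at 1106 and Cd68 at 257, beside Pdgfra, a fibroblast marker, at 628. Pecam1 was at 4.47, Ptprc at 3.09 and Myod1 at 0. Whether other cell types were present, and how much of the levels below came from them, was not tested.

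All 40 members had a mean of at least 10 normalized counts, as did 56.9% of all genes. The lowest was Setd1b at 241 normalized counts and the highest Rbbp4 at 19886. Together the members took 0.225% of the 51217083 normalized counts summed over all genes, and Rbbp4, Rbbp7 and Phc2 alone held 41.7% of the members' counts. At these levels the half-width of the counting interval ran from 0.567% to 5.15% of the mean.

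Levels can be compared between genes only per length, so the mean of a transcript was divided by its spliced length. For 6 members whose representative transcript had no known length, the mean and length of another transcript of the gene were used. The median member had 353 normalized counts per kb, beside 349 for the 13976 genes with a mean of at least 10 and a known length. With all exons of each gene joined, these medians were 209 and 230. Of the 40 members, 20 lay above that median. The list as a whole thus sat at the middle of expressed genes, but its range was wide, from 27.2 normalized counts per kb for Setd1b to 6407 for Rbbp7. Of the members, 10 lay above the 75th percentile of expressed genes and 4 below the 25th. The length of the transcript that the cells use is not known, so the level per kb was also computed with the longest transcript, with the transcript of highest level per kb, and with all exons of the gene joined. Over these 4 length choices, 18 members stayed above the median of all genes, 19 stayed below it and 3, Pcgf5, Pcgf6 and Phc3, changed side. For the 20 members with 1 transcript, only the joined exons could give another length.

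**Figure D1:**
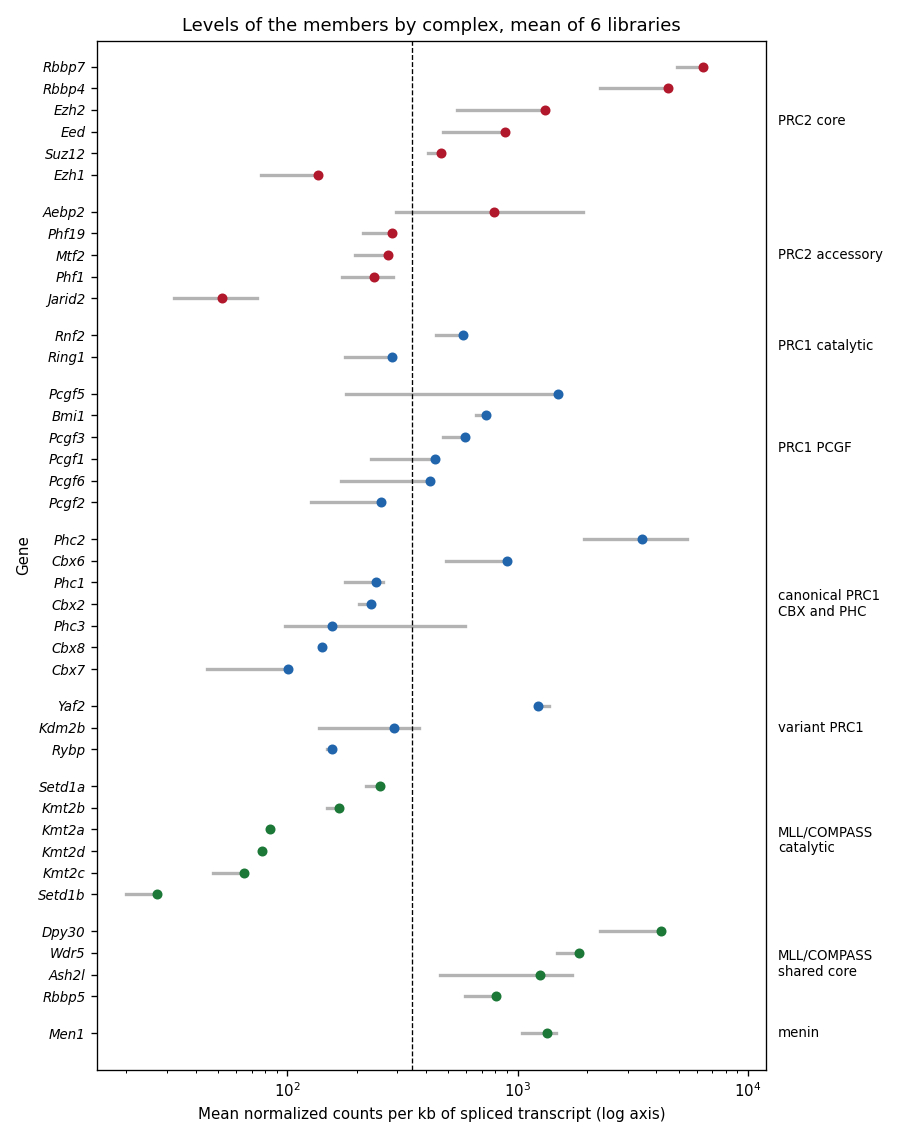
Mean normalized counts per kb of spliced transcript (log axis) of the 40 members, grouped by complex and pooled over 6 libraries. Points are the representative transcripts, grey lines span the 4 length choices, and the dashed line is the median of all expressed genes, 349 per kb. The 6 MLL/COMPASS methyltransferases lie left of the dashed line and the 4 shared core subunits right of it.

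**Figure D2:**
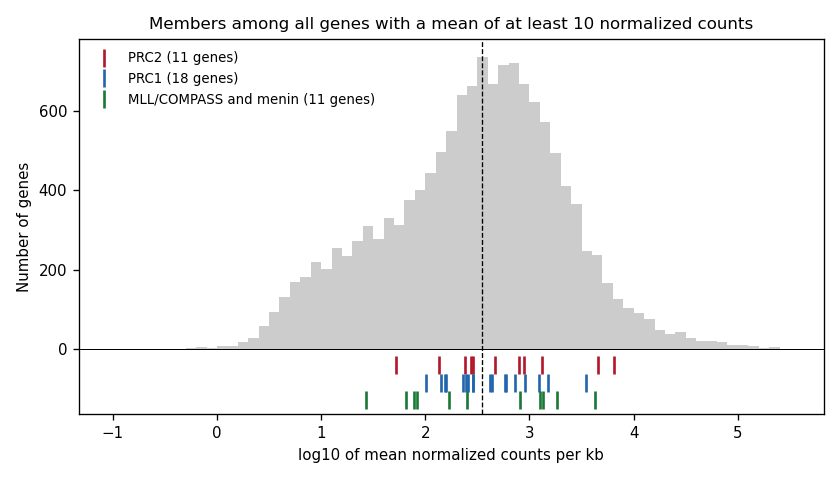
Histogram of log10 mean normalized counts per kb over the genes with a mean of at least 10 and a known length, with each member as a tick below. The dashed line marks the median of all these genes, and the ticks of the MLL/COMPASS genes fall into a lower and a higher set with none between Setd1a at 252 and Rbbp5 at 810 per kb.

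The promoters of 4 members were chosen for display because they mark contrasts in level described below, a high against the lowest core gene of PRC2 (Rbbp4 and Ezh1) and the higher against the lower ligase of PRC1 (Rnf2 and Ring1). In these 4, the start listed by RefSeq is the outer end of the annotated gene. Each run is the 250 bases before that start in the direction of the gene, on GRCm38.p6. Capitals mark the letters GGGCGG, which the factor SP1 binds, and CCAAT, which NF-Y binds, on either strand.
Rbbp4 (chr4:129335371-129335620, minus strand): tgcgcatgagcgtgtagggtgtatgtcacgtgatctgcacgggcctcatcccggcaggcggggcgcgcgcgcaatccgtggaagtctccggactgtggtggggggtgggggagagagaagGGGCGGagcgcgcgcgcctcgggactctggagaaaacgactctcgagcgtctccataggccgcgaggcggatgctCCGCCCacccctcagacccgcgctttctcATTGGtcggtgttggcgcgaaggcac
Ezh1 (chr11:101226464-101226713, minus strand): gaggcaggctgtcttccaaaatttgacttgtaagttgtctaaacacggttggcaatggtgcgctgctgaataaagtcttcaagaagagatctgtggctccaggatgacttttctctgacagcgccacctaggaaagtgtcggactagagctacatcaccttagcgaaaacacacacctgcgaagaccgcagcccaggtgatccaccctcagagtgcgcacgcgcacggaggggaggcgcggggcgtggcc
Rnf2 (chr1:151500992-151501241, minus strand): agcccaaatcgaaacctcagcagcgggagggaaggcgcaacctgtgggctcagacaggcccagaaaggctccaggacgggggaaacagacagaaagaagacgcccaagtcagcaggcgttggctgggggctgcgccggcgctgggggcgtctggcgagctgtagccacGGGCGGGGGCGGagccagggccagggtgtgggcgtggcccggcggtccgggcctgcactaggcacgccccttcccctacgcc
Ring1 (chr17:34024681-34024930, minus strand): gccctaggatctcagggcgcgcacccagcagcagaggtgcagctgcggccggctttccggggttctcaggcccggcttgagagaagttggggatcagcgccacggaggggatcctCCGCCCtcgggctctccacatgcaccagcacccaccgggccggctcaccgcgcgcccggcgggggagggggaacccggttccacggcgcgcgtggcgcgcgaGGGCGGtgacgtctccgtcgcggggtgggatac
The run of Rbbp4 held 2 GGGCGG matches and 1 CCAAT match, and that of Ezh1 held neither. Rnf2 and Ring1 each held 2 GGGCGG matches and no CCAAT match. A match is a description of the letters and not a site shown to be bound.

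PRC2 was represented by 6 core and 5 accessory genes. The core had a median of 1099 normalized counts per kb, which was 512 with all exons joined, and 5 of its 6 genes were above the median of all expressed genes under each of the 4 length choices. The histone-binding subunits Rbbp7 and Rbbp4 were high, at 6407 (95% interval 6365 to 6450) and 4512 (4487 to 4538) normalized counts per kb. Rbbp7 was the highest of the 40 members under each of the 4 length choices, while Rbbp4 was passed by Phc2, at 5426, with the transcripts of highest level per kb, and by Dpy30, at 2284 against 2274, with all exons joined. Both proteins are also part of the NuRD, SIN3 and chromatin assembly complexes, so their RNA is not a measure of PRC2 alone. Which of them was higher depended on the scale, since Rbbp4 had more counts and Rbbp7 more counts per kb, a ratio of 1.42 per kb but 0.723 without length scaling. Rbbp7 is the only member on the X chromosome. The exons of Rbbp4 and Rbbp7 shared 518 and 174 bases with Sync and Txlng on the opposite strand. The authors state default settings without naming the strand setting, so whether reads from both genes were told apart there is not known.

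The catalytic subunits of PRC2 differed strongly. Ezh2, the methyltransferase of proliferating cells (chr6:47530274-47595270), had a mean of 3661 normalized counts, and Ezh1 (chr11:101191115-101226463), its relative in resting cells, had 573. Per kb this was 1319 against 137, a ratio of 9.66 (95% counting interval 9.32 to 10.0), and over 5 scales, the 4 length choices and counts without length scaling, it lay between 6.39 and 9.66. Ezh1 was the only core gene below the median of expressed genes. Eed, which binds methylated H3 and stimulates the enzyme, had 879 normalized counts per kb. Suz12, the scaffold, had 463, which was 56.3 on the percentile scale of expressed genes.

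The accessory subunits, which direct PRC2 to its targets, were lower, with a median of 275 normalized counts per kb. Aebp2, a zinc finger protein found in the PRC2.2 form, was the exception at 786, although its 5 transcripts had means from 1498 to 2930 normalized counts and its level per kb ranged from 297 to 1918 over the length choices. Its partner in PRC2.2, Jarid2, had 314 normalized counts and 52.4 per kb. With the representative transcripts, this was the second lowest level per kb of the 40 members, after Setd1b. Over the length choices Jarid2 ranged from 32.3 to 73.9 per kb, while Kmt2c did not exceed 64.8. The 3 Polycomb-like proteins of PRC2.1 lay close together, Phf19 at 286, Mtf2 at 275 and Phf1 at 238 normalized counts per kb. Their order was not stable, since Phf19 over Mtf2 was 1.04 per kb and 0.947 on counts.

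In PRC1, Rnf2 encodes RING1B, the main ubiquitin ligase, and Ring1 encodes RING1A. Rnf2 had 1840 and Ring1 579 normalized counts. The ratio per kb was 2.04 (95% counting interval 1.97 to 2.12), and it stayed between 2.04 and 3.18 over the 5 scales.

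The 6 PCGF genes define the kinds of PRC1. The canonical complexes with CBX proteins contain the product of Pcgf2 or Bmi1 (PCGF4), and the other PCGF proteins are found in variant complexes. Bmi1 had 729 normalized counts per kb against 255 for Pcgf2, a ratio of 2.86 (2.74 to 2.98) that rose to 5.85 on counts. Pcgf3 had the most counts of the PCGF genes, 4543. Pcgf5, its close relative, had 2271 normalized counts. The level of Pcgf5 per kb could not be fixed, because the only matched transcript is 1508 bases long while all exons of the gene add up to 12629 bases, which gave 1504 or 180 normalized counts per kb. Pcgf1, of the complex with KDM2B, and Pcgf6, of the complex with E2F6 and MGA, were at 439 and 416 per kb.

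The chromodomain proteins, which read methylated lysine 27 of histone H3, were led by Cbx6 at 897 normalized counts per kb. Cbx2 followed at 230, Cbx8 at 142 and Cbx7 at 100.4. Cbx6 was 8.93 times Cbx7 per kb (95% counting interval 8.51 to 9.37), and between 8.93 and 17.9 times over the 5 scales. Cbx6 and Cbx7 lie 81470 bases apart on chromosome 15, and Cbx2 and Cbx8 5027 bases apart on chromosome 11, with a ratio of 1.62 for Cbx2 over Cbx8 per kb. Of Cbx6 exon bases, 9.70% are shared with Npcd on the same strand. Among the polyhomeotic genes, whose proteins polymerize PRC1, Phc2 stood out at 13755 normalized counts. Phc1 had 948 and Phc3 1712, so that Phc2 was 14.3 times Phc1 and 22.3 times Phc3 per kb, with lowest values of 10.9 and 8.03 over the 5 scales.

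Of the variant PRC1 genes, Yaf2 exceeded its relative Rybp, which occupies the same place in the complex. Yaf2 had 1222 normalized counts per kb and Rybp 156, a ratio of 7.81 (7.55 to 8.09) that was 3.25 on counts. Kdm2b, which brings the PCGF1 complex to unmethylated CpG islands, had 289 per kb, and 11.6% of its exon bases overlap Rnf34 on the opposite strand.

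The MLL/COMPASS genes split by role. All 6 methyltransferases were below the median of expressed genes per kb under each length choice, with a median of 80.8 normalized counts per kb. Without length scaling the group median was 1405 normalized counts, beside 1028 for all expressed genes. Setd1a, Kmt2b, Kmt2a and Kmt2d lay above 1028, but Kmt2c at 969 and Setd1b at 241 lay below it. Setd1b had the fewest counts of all the members, so its level was low on both scales. The transcripts of the group were long, with a median of 11912 bases beside 2855. Setd1a, the broad H3K4 methyltransferase, had 252 normalized counts per kb and Setd1b 27.2, a ratio of 9.28 (95% counting interval 8.78 to 9.81). Kmt2b and Kmt2a, the menin-binding enzymes of developmental and Hox genes, had 1427 and 1383 normalized counts, a ratio of 1.03 on counts and 2.01 per kb. Kmt2d and Kmt2c, the enhancer enzymes, had 1538 and 969 normalized counts, and 77.6 and 64.8 per kb.

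The 4 subunits that all these enzymes share were above the median under each length choice, with a median of 1546 normalized counts per kb. Dpy30, a small dimer that docks on ASH2L, had 4207 normalized counts per kb, Wdr5 1841, Ash2l 1251 and Rbbp5 810. The lowest of them, Rbbp5, was above the highest methyltransferase, Setd1a, at 252. Dpy30 rests on a transcript of only 622 bases and had 2617 normalized counts, fewer than Wdr5 with 5319. Men1, which encodes menin, the adaptor of KMT2A and KMT2B, had 3991 normalized counts and 1341 per kb.

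**Figure D3:**
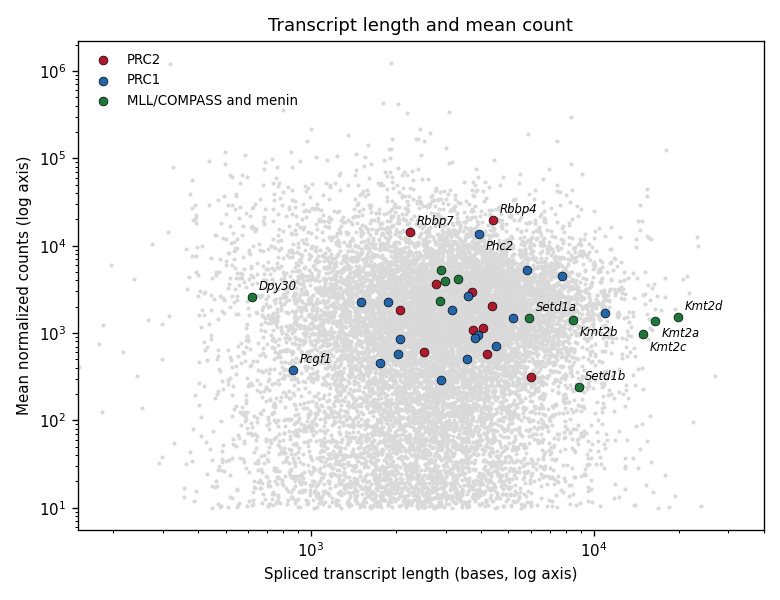
Mean normalized counts against spliced transcript length (both log axes) for all genes with a mean of at least 10 (grey) and the members (coloured by complex). The 6 MLL/COMPASS methyltransferases lie at the right, between 5927 and 19823 bases, at counts between 241 and 1538.

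Ratios were formed for 15 pairs of related genes, and 11 of them kept the same gene higher under all 5 scales. The higher gene was named per kb with the representative transcripts, so on that scale the ratio is above 1 by construction. Of the 11, Kmt2b over Kmt2a came closest to 1, at 1.03 on counts. There the counting intervals of Kmt2b (1397 to 1458) and Kmt2a (1353 to 1413) overlapped. Between genes with 1 transcript each, such as Setd1a and Setd1b, the transcript choices coincide. Only joined exons and counts without length scaling then differ. The steady pairs included Ezh2 over Ezh1, Rnf2 over Ring1, Bmi1 over Pcgf2, Phc2 over Phc1 and Phc3, Yaf2 over Rybp and Setd1a over Setd1b. The exceptions were Rbbp7 over Rbbp4, Phf19 over Mtf2, Phf19 over Phf1 and Pcgf5 over Pcgf3. As the spread between libraries is unknown, these ratios describe the pooled means and were not tested.

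**Figure D4:**
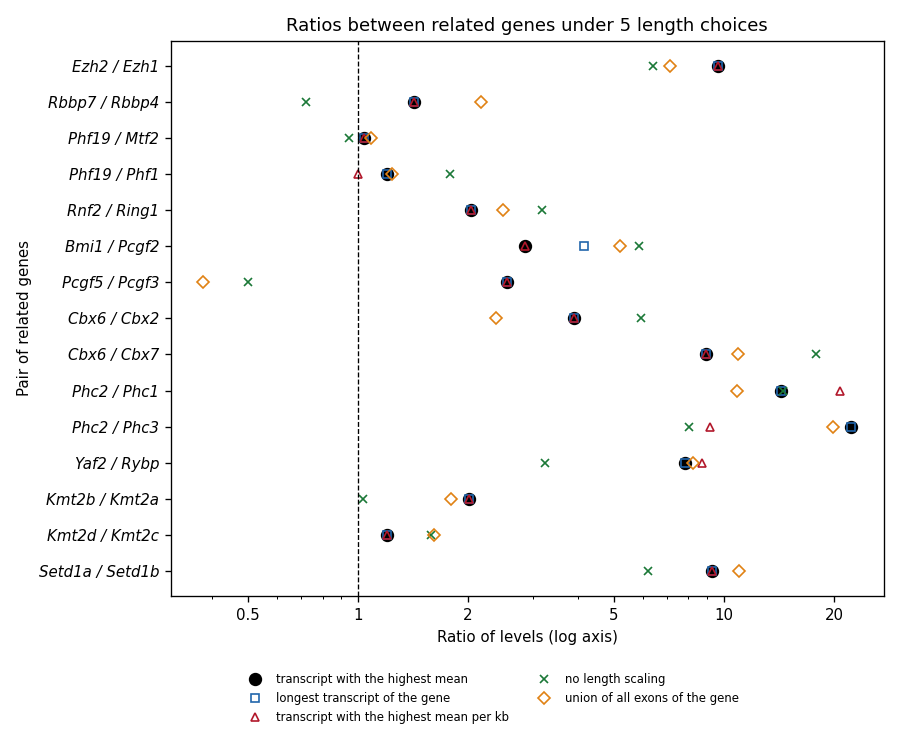
Ratio of levels (log axis) for 15 pairs of related genes under 5 scales, with the dashed line at a ratio of 1. For 11 pairs all symbols lie to the right of the line. The pairs Rbbp7 and Rbbp4, Phf19 and Mtf2, Phf19 and Phf1, and Pcgf5 and Pcgf3 have symbols on both sides.

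Of the 20 members with several transcripts, 17 had all of them within 90% of the highest mean, and Aebp2, Mtf2 and Kdm2b did not. The representative transcripts of Mtf2 and Yaf2 are noncoding RefSeq models of these genes. Across the table, 39.6% of genes with several transcripts held transcripts with identical means, and the transcripts of a gene were not treated as separate measurements.

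Other genes of these pathways had a higher median. All 44 of a further list were found, 43 of them with a mean of at least 10, and the median of the 42 that also had a length was 658 normalized counts per kb. The highest were Csnk2b, the regulatory subunit of casein kinase 2, at 17124, Skp1, a ubiquitin ligase adaptor of the KDM2B complex, at 4117, and Tfdp1, the dimer partner of E2F factors, at 3413 normalized counts per kb. The lowest were Mbd6 at 69.2, Kdm6b, a demethylase of lysine 27, at 40.4 and Asxl3, a partner of the BAP1 deubiquitinase, at 0.756, with a mean of 8.84 normalized counts.

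Promoters were matched for 33 members in RefSeq on GRCm38.p6, over 300 bases from 250 before to 50 after the first listed start. Of these, 27 (81.8%) were rich in CpG, with at least 50% G and C and an observed over expected CpG ratio of at least 0.6, beside 67.9% of genes with a mean of at least 10 and 34.1% of all 27025 promoters. GGGCGG was present in 23 (69.7%), beside 64.3% and 35.9%. CCAAT was present in 12 (36.4%), beside 39.0% and 37.9%. The ETS letters CCGGAAGT and the TATA letters TATAAA, both strands searched, were in 0 members, beside 8.0% and 7.28% of genes with a mean of at least 10, and in 4.0% and 14.2% of all promoters. The 6 that were not CpG rich were Aebp2, Dpy30, Men1, Pcgf2, Phc1 and Rbbp5. Of these, Aebp2, Dpy30 and Men1 have a further listed start that was, which brings the count of members with a CpG-rich start to 30 of 33 (90.9%), beside 71.5% of genes with a mean of at least 10 and 36% of all genes by the same rule. The stretch before the first listed start lay in part or wholly inside the annotated gene in 14 of the 33, among them Ezh2, with 240 of 250 bases inside, so the windows do not all cover the same part of the gene's 5′ region.

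**Figure D5:**
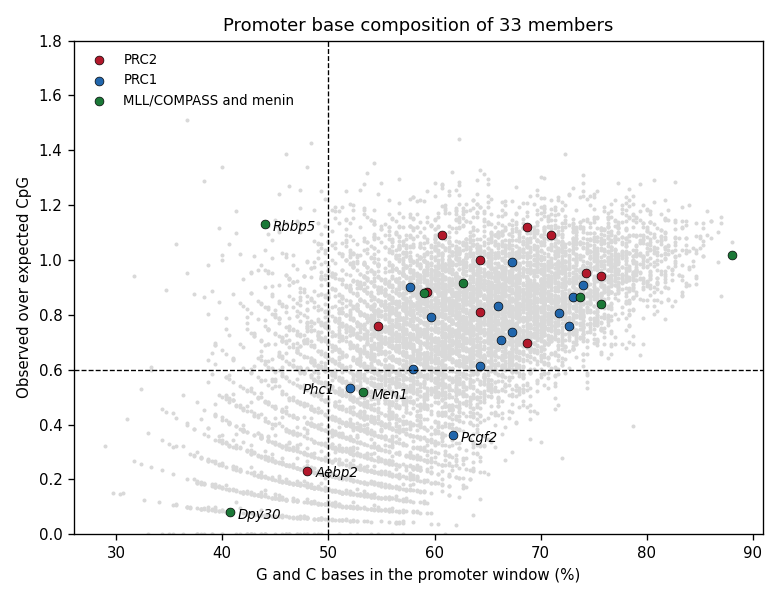
Observed over expected CpG against the percentage of G and C in the 300-base promoter window for 33 members (coloured by complex) and for genes with a mean of at least 10 (grey). Dashed lines mark 50% and 0.6, and the 6 named members fall outside the upper right field.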

How the data were processed

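Total RNA of 3 WT and 3 Anp32e null MEF libraries was prepared with a stranded kit. The authors mapped the reads with RNA-STAR (mm10), obtained counts with Subread featureCounts and analysed them with DESeq2, and the labels also name deepTools. The deposited table gives, as a signal, each transcript's size-factor-scaled count averaged across all 6 libraries, 1 row per RefSeq transcript (42361 rows). The other columns hold the fold change between genotypes, its error, a statistic and p-values, and none were used.

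Transcripts were matched to genes with RefSeq (GRCm38.p6), which left 163 without a gene. Lengths came from GENCODE models matched to RefSeq, so they are approximate. In 34 members the length is that of the representative transcript and in 6 of another. In 647 pairs of nested transcripts, the extra bases held a median of 3.45% of the reads their length would give. Isoform use was therefore not inferred, and levels per kb that rest on the longer models may be too low. Total counts per library are not known. The steps of the lowest means gave size factors from 0.909 to 1.13, not assigned to libraries, and the counting intervals. Of the 33 promoters, 31 began as a GENCODE transcript on the listed strand.

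All 40 listed members are named, with the 3 highest and 3 lowest of the other pathway genes. The members and lists were chosen with earlier results of these data known. Python 3.11.15 with pandas 2.3.3 and numpy 2.4.6 was used.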

Additional observations from a re-analysis of the deposited data

How the results depend on the processing

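The number of members past the minimum level was 40 at minimum means of 1, 10 and 50 and with the longest transcript. The median member was at 353 normalized counts per kb. It was 344 with the longest transcript, 428 with the transcript of highest level per kb and 388 with 200 bases taken off each length. Without the X chromosome, which holds only Rbbp7, it was 289. The median of 353 falls in a gap between Pcgf6 at 416 and Kdm2b at 289 per kb. With all exons of each gene joined the median was 209. Without the 4 members that share exon bases with another gene it was 285. Both of these settings were chosen after seeing the data. The share of members above the median of all genes was 50%, and 80% against every gene with a mean above 0. Against genes represented by a coding RefSeq transcript, or with the longest transcript, no length scaling or joined exons, it lay between 45% and 65%. The medians of the complexes moved by more than counting error in 13 of 27 recalculations and the ratios in 28 of 60, without a change of the higher gene. In 5 recalculations the higher gene changed. Without length scaling, Rbbp7 over Rbbp4 was 0.723, Phf19 over Mtf2 0.947 and Pcgf5 over Pcgf3 0.49998, Pcgf5 over Pcgf3 was 0.377 with joined exons, and Phf19 over Phf1 was 0.9996 with the transcript of highest level per kb. The cause was not tested. Leaving out single libraries was not run, since the table holds only their mean. No paired analysis was possible because the table holds no values per library.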
